A study of Mus musculus with 2 samples.

Results

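The genes of mitochondrial fusion and fission were measured in mouse calf muscle at the end of the second postnatal week. They were taken by symbol from a fixed list of 10 genes, all 10 of which matched 1 gene each among 55536 annotated genes. The libraries were made from total RNA of the gastrocnemius of female B6CASTF1/J mice, first-generation hybrids of C57BL/6J and CAST/EiJ, at 14 days of age, from 300 ng RNA each. The 2 libraries form 1 group, replicates 1 and 2, and no treatment, tissue or age was compared. Both library descriptions name 3 females, but the tissue text names 3 for replicate 1 and a single female for replicate 2, so pools and single animals cannot be told apart and the spread between libraries may be technical. In bulk muscle, fewer cells of a type and less RNA per cell cannot be told apart.

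Mitochondria of a cell join and divide continually. Mitofusins on the outer membrane of neighbouring mitochondria join those membranes, and Opa1, a dynamin-like GTPase in the inner membrane, then joins the inner membranes and shapes the cristae. Division is carried out by the dynamin-like GTPase Drp1, encoded by Dnm1l, which is recruited from the cytosol by adaptors on the outer membrane. The inner membrane proteases encoded by Yme1l1 and Oma1 cut Opa1, and in muscle fibres the balance of fusion and division sets the shape of the mitochondrial network between and beneath the myofibrils.

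Expected counts of genes, in which a read that matches several genes is split between them, summed to 35592003 in replicate 1 and 42105856 in replicate 2, and 12247 and 12551 genes reached 1 TPM (a level divided by transcript length and scaled to a fixed sum per library). All 5 muscle fibre markers were above 1 TPM and summed to 90988 and 95572 TPM, and 3 of 3 heart markers were listed at 0. The 4 Schwann cell markers summed to 183 TPM in replicate 1 and 511 in replicate 2, and the 2 erythroid markers to 2034 and 1034. The 3 smooth muscle markers summed to 146 and 348 TPM, most of it from Acta2 at 119 and 306. Tagln had 18.02 and 31.53 TPM, and Myh11 8.59 and 10.48. The 4 fibro-adipogenic markers summed to 2096 and 3356 TPM, most of it from the collagens Col1a1 (1128 and 1958) and Col3a1 (759 and 1135), while Dcn had 190 and 242 TPM and Pdgfra 18.3 and 20.2. The part of these differences in the values that follow was not tested. The endothelial and macrophage markers, 3 each, summed to 124 and 128 TPM and to 11.2 and 15.3 TPM. The 3 adipocyte markers summed to 161 and 126 TPM, nearly all of it Fabp4 at 159 and 122, while Adipoq had 1.59 and 1.91 TPM and Plin1 1.27 and 2.13.

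Several members are spliced to give coding transcripts that hold or skip short exons, and the transcript tables give the share of each. The sequences show these exons with capitals marking the exon and lower case the 20 bases to either side in a spliced transcript, 5′ to 3′ on the sense strand. They were cut from GENCODE M21 transcript sequences at mm10 coordinates. All 8 have lengths that are multiples of 3, so either choice keeps the reading frame.
Opa1 54-base exon: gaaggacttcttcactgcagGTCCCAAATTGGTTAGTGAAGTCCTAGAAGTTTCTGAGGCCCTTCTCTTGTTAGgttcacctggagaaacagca
Opa1 111-base exon: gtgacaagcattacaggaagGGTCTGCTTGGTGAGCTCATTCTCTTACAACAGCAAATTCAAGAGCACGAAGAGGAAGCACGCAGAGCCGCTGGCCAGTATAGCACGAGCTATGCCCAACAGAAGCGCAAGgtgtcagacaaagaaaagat
Dnm1l 33-base exon: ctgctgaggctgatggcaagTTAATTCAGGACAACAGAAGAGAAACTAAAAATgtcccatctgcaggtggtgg
Dnm1l 78-base exon: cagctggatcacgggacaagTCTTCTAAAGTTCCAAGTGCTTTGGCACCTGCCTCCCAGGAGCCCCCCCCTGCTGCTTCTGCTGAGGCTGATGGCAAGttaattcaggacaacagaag
Dnm1l 39-base exon: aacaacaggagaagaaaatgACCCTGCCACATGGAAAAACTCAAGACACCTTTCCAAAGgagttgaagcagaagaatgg
Mff 75-base exon: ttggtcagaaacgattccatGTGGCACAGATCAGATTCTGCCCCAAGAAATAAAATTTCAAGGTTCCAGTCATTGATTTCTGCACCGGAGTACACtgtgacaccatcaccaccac
Mff 159-base exon: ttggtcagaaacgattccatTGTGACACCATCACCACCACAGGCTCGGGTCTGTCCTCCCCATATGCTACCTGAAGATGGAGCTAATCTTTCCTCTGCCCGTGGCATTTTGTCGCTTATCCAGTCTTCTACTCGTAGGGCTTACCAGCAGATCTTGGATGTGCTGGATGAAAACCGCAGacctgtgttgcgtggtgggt
Mff 60-base exon: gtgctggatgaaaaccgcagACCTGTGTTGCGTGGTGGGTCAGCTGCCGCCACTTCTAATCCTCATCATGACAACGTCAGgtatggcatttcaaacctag
Their positions, from 1 and inclusive, are chr16:29588823-29588876 and chr16:29597586-29597696 on the plus strand for Opa1. The Dnm1l exons lie on the minus strand at chr16:16318445-16318477, chr16:16318764-16318841 and chr16:16342697-16342735. The Mff exons lie on the plus strand at chr1:82737013-82737087, chr1:82741818-82741976 and chr1:82747083-82747142.

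All 10 members exceeded 1 TPM in both libraries, and the lowest library value was 9.71 TPM, for Oma1. The levels were 160 to 9.71 TPM in replicate 1 and 142 to 10.1 TPM in replicate 2. The highest, Mfn2, ranked 367 and the lowest, Oma1, ranked 4849 by mean TPM among 21938 nuclear protein-coding genes. Of these, 11321 reached a mean of 1 TPM, with a median of 8.00 TPM. All 10 members therefore stood above the median of the detected coding genes. In coding transcripts with complete annotated ends alone, Mief1 had 6.76 and 7.63 TPM, below that median, which counts all transcripts. A second deposited quantification gave every member a higher mean, from 1.14 times for Mief1 to 1.52 times for Mfn2. There Mfn2 had 246 and 214 TPM and Fis1 119 and 110 TPM. The SDs given below cover the gene tables alone.

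**Figure D1:**
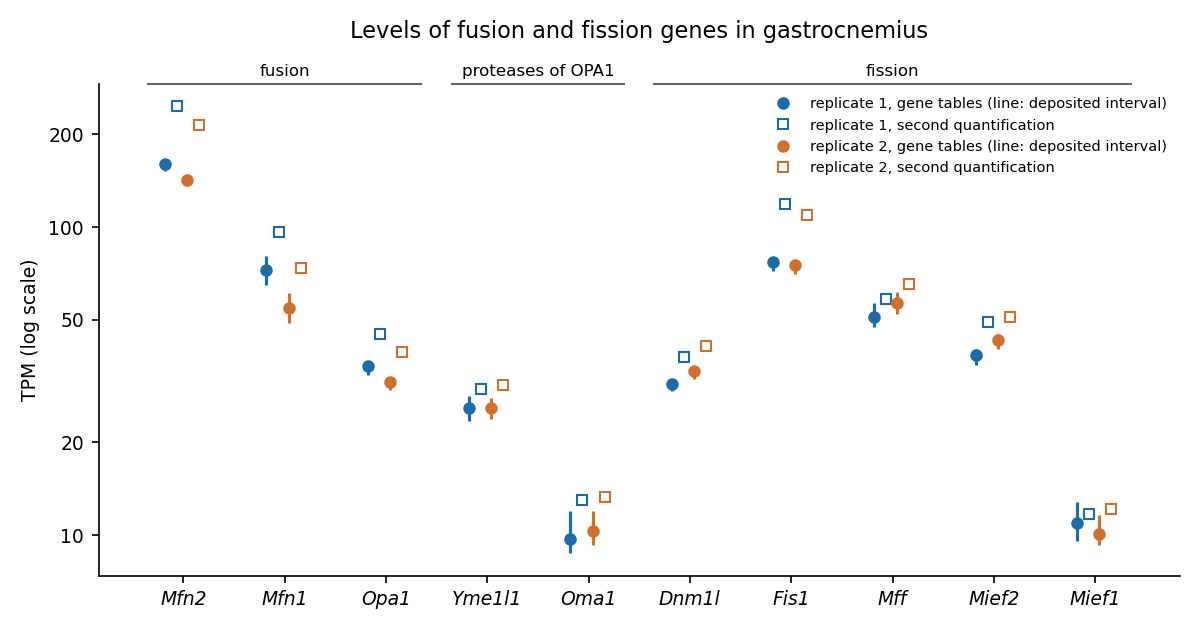
TPM (log axis) of each of the 10 members in replicates 1 and 2, the fusion, protease and fission genes in separate groups. Filled points with the deposited interval are from the gene tables, and open squares from the second quantification. In the gene tables Mfn2 was highest, at 160 and 142 TPM, and Oma1 and Mief1 lay near 10 TPM.

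Among the fusion genes, Mfn2, an outer membrane mitofusin that also tethers mitochondria to the endoplasmic reticulum, had 160 TPM in replicate 1 and 142 TPM in replicate 2 (mean 151 ± 12.7, SD, n = 2). Mfn1, the other mitofusin, had 72.7 and 54.5 TPM (63.6 ± 12.8). Opa1, the inner membrane fusion GTPase, had 35.4 and 31.4 TPM (33.4 ± 2.87). Mfn2 stood above Mfn1 and Mfn1 above Opa1 in both libraries with no overlap of the deposited intervals for Mfn2 over Mfn1 or Opa1 over Mfn2. The intervals are those of the deposited posterior estimates, at a level not given in the sources used here. In mm10, Mfn2 (ENSMUSG00000029020.13) lies at chr4:147873599-147904704 on the minus strand, Mfn1 (ENSMUSG00000027668.13) at chr3:32529465-32579239 on the plus strand and Opa1 (ENSMUSG00000038084.16) at chr16:29579334-29654884 on the plus strand. Mfn2 was 2.20 times Mfn1 in replicate 1 and 2.61 times in replicate 2, and Opa1 was 0.221 times Mfn2 in each.

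The mitofusin ratio depended on which transcripts were counted. Of Mfn1, 49.7% and 43.4% of the TPM came from transcripts shorter than 1000 bases, which held 10.8% and 8.79% of its expected counts. One was Mfn1-210, a retained-intron transcript of 246 bases with 58.1 and 38.1 expected counts, which was credited 19.4% and 14.6% of the gene's TPM. In the second deposited quantification Mfn1-210 was at 0% in both libraries, but transcripts under 1000 bases still held 46.1% and 41.3% of Mfn1, with the open-ended Mfn1-204 at 27.8% and 28.7%. Counting only coding transcripts with complete annotated ends, an alternative chosen after the data were seen, left Mfn1 at 34.6 and 29.7 TPM and made Mfn2 4.19 and 4.45 times Mfn1. In the second quantification with all transcripts the ratio was 2.56 and 2.92, so Mfn2 stood above Mfn1 in each of these measures.

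**Figure D2:**
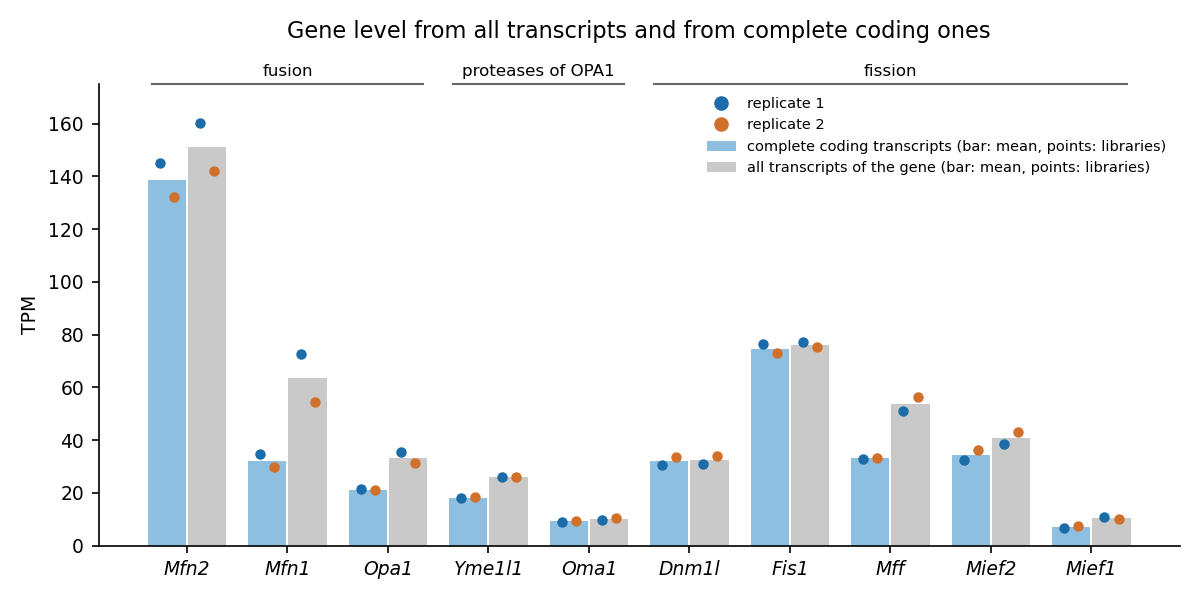
TPM of each member in replicates 1 and 2 from all transcripts and from complete coding transcripts alone. Mfn1 had 34.6 and 29.7 TPM in complete coding transcripts, against 72.7 and 54.5 TPM in all its transcripts.

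Of the proteases, Yme1l1, an ATP-dependent enzyme that cuts Opa1 in unstressed mitochondria, had 25.9 TPM in replicate 1 and 26.0 in replicate 2 (25.9 ± 0.0212, SD, n = 2). Oma1, the stress-activated protease that cuts Opa1 when the membrane potential is lost, had 9.71 and 10.3 TPM (10.005 ± 0.417). Yme1l1 was 2.67 and 2.52 times Oma1 without overlapping intervals, and 2.01 and 1.96 times in complete coding transcripts. Opa1 was 1.37 and 1.21 times Yme1l1 and 3.65 and 3.04 times Oma1. Yme1l1 (ENSMUSG00000026775.9) lies at chr2:23156369-23199260 and Oma1 (ENSMUSG00000035069.3) at chr4:103313812-103371868, both on the plus strand. The substrate gene lay above both proteases in each library.

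For division, Dnm1l had 31.1 TPM in replicate 1 and 34.0 in replicate 2 (32.5 ± 2.10, SD, n = 2). Fis1, a small outer membrane protein whose yeast counterpart takes part in recruiting the division dynamin, had 77.1 and 75.3 TPM (76.2 ± 1.30). Mff, the adaptor known to recruit Drp1 most strongly in mammalian cells, had 51.2 and 56.5 TPM (53.9 ± 3.79). Mief2, which encodes MiD49, had 38.5 and 43.1 TPM (40.8 ± 3.27), and Mief1, which encodes its paralogue MiD51, had 10.97 and 10.1 TPM (10.5 ± 0.622). Of the 4 adaptor genes, Fis1, Mff and Mief2 lay above Dnm1l in both libraries and Mief1 lay below it. Dnm1l was 0.403 and 0.452 times Fis1, 0.607 and 0.602 times Mff, 0.808 and 0.790 times Mief2, and 2.83 and 3.37 times Mief1. In complete coding transcripts Dnm1l was 0.931 and 1.01 times Mff, so this pair was not in the same order in both libraries, while Dnm1l stayed below Fis1 (0.402 and 0.462) and Mief2 (0.946 and 0.935) and above Mief1 (4.54 and 4.43). With counts not divided by length Dnm1l stood above Fis1, Mff and Mief2.

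Dnm1l (ENSMUSG00000022789.15) lies at chr16:16312230-16358959 on the minus strand. The adaptor genes lie on plus strands, Fis1 (ENSMUSG00000019054.13) at chr5:136953275-136966234, Mff (ENSMUSG00000026150.14) at chr1:82724890-82752394, Mief2 (ENSMUSG00000018599.5) at chr11:60728398-60732951 and Mief1 (ENSMUSG00000022412.14) at chr15:80234018-80253371. Mief1 was 0.285 and 0.234 times Mief2, and the intervals of the pair did not overlap in either library. Mief1 contains AC140267.1, an annotated coding gene on the same strand inside its span, which had 3.23 and 3.00 TPM and 10.4 and 11.1 expected counts. The posterior SD of the expected count was 4.85 and 5.07 for both Mief1 and AC140267.1, and 0 in both libraries for 8 members, so the division of a few reads between Mief1 and this gene was uncertain, of 1023 and 1267 counts credited to Mief1. The other genes overlapping members held at most 15 counts each in a library, among them the antisense gene of Dnm1l with 5 and 2. Whether the counting used strand is not given in the sources used here.

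By mean TPM the members ran Mfn2, Fis1, Mfn1, Mff, Mief2, Opa1, Dnm1l, Yme1l1, Mief1 and Oma1. Of the 9 neighbouring pairs, 6 were separated, in that the lower library of the higher gene lay above the higher library of the lower gene. Mfn1 and Mff, Opa1 and Dnm1l, and Mief1 and Oma1 did not differ beyond this spread. Fis1 over Mfn1 and Mief2 over Opa1 were separated in level, but their deposited intervals overlapped in 1 library each. With complete coding transcripts alone the order was Mfn2, Fis1, then Mief2, Mff, Dnm1l and Mfn1, whose neighbours were not separated, then Opa1, Yme1l1, Oma1 and Mief1.

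Summed over the 3 fusion genes the level was 268 TPM in replicate 1 and 228 TPM in replicate 2. The 5 fission genes summed to 209 and 219 TPM and the 2 proteases to 35.6 and 36.3 TPM. Fusion genes were 1.28 times fission genes in replicate 1 and 1.04 times in replicate 2. Mfn2 alone held 31.2% and 29.4% of the summed TPM of the 10 members, Fis1 15.0% and 15.6%, and Mfn1 14.2% and 11.3%. In complete coding transcripts the ratio of fusion to fission was 1.12 and 0.994, so which sum was larger was not the same in both libraries. In the second quantification with all transcripts the ratio was 1.41 and 1.17, with the fusion sum larger in both.

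Between the libraries, replicate 2 over replicate 1 was expressed as a log2 ratio of counts scaled by TMM. Its exact binomial 95% interval covers counting error alone, and the coefficient of variation between the libraries, fitted over all tested genes, was 0.159. No p-value exists with 1 library on each side. Of 15734 genes with a summed count of at least 20, 13.5% differed by more than 1.5-fold in either direction, against 0 of the 10 members. All 10 members had a ratio below 0, against 48.6% of genes, with a median of -0.11 against 0.01. The interval lay below 0 for 6 members, against 19.2% of genes. The share past 1.5-fold was 4.92% among the 6323 genes with a summed count of at least 1000, a depth that each member reached and a group chosen after the data were seen.

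Mfn1 had the lowest ratio, -0.42 (-0.49 to -0.36), from 3671 counts in replicate 1 and 3537 in replicate 2. Mfn2 followed at -0.30 (-0.33 to -0.27), from 17524 and 18365 counts, and Opa1 at -0.28 (-0.34 to -0.22), from 4395 and 4688 counts. The intervals of Fis1 (-0.31 to -0.11), Yme1l1 (-0.20 to -0.04) and Mff (-0.18 to -0.01) also lay below 0, with ratios of -0.21, -0.12 and -0.09. The intervals of Oma1, Mief1, Dnm1l and Mief2 held 0, with ratios of -0.08 to -0.01. Counting error is small at these depths, so the fusion genes are set beside all genes with a summed count of at least 1000, without an upper limit. Among those 6323 genes the middle 50% of ratios ran from -0.16 to 0.11. The 3 fusion genes and Fis1 lay below this range and the other 6 members within it. Of these genes 54.9% had a ratio below 0 and 32.3% an interval below 0. Mfn1, at 0.745 times its level in replicate 1, was the single member below a log2 ratio of -0.32, a smaller fold tried as an alternative, against 9.81% of these genes and 13.5% of all tested.

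The direction of the ratios depended on the scaling. In TPM, Dnm1l, Mff, Mief2 and Oma1 were higher in replicate 2, Yme1l1 was nearly equal (25.92 and 25.95), and the other members were lower. With library totals 4 members had a lower level in replicate 2 and with spike-in totals 3 did, which were Mfn1 (-0.20), Mfn2 (-0.08) and Opa1 (-0.06). The median of all genes moved to 0.14 with library totals and to 0.23 with spike-in totals, and the median of the members, at 0.02 and 0.11, lay below it. With DESeq2 size factors and with the second quantification all 10 ratios were again below 0. Mfn1, Mfn2 and Opa1 alone were lower in replicate 2 under all of these scalings.

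**Figure D3:**
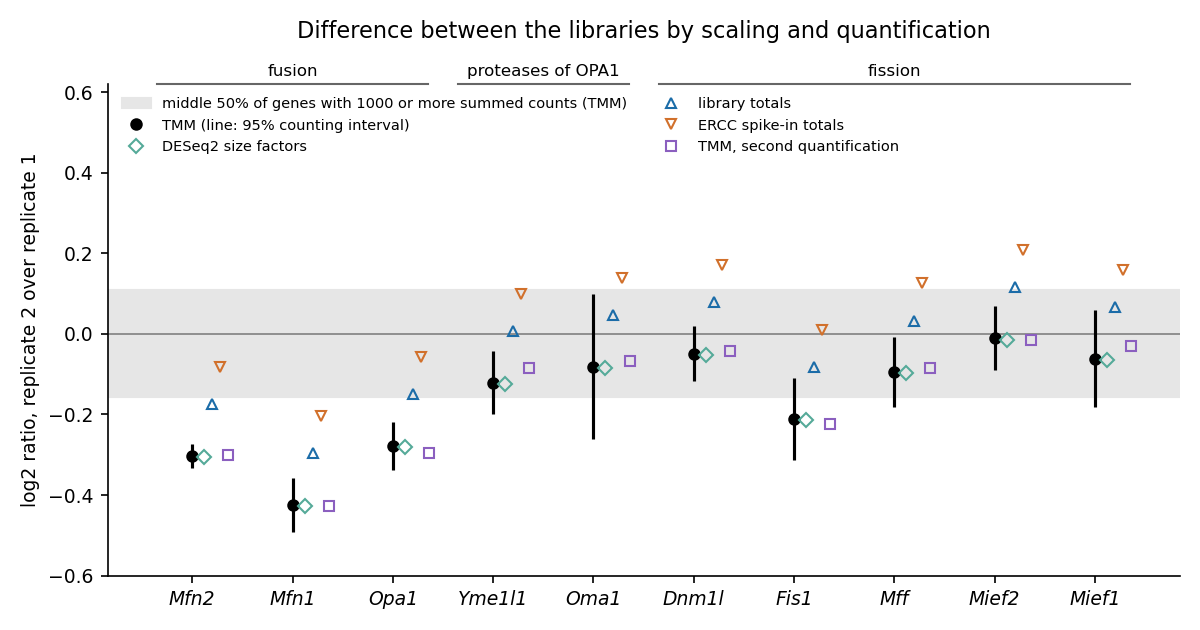
Log2 ratio of replicate 2 over replicate 1 for each member by scaling, with the grey band marking the middle 50% of genes with a summed count of at least 1000 under TMM. Mfn1, Mfn2 and Opa1 lay below 0 under every scaling, while the other members lay on both sides of it.

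The members had 74 annotated transcripts, 40 of them coding, and 11 of those coding transcripts have an open annotated end. Of the 74, 29 reached 10% of their gene in either library. The same transcript led in both libraries for 8 members. Mfn2-201 held 89.2% and 91.5% of Mfn2, Oma1-201 92.1% and 91.8% of Oma1, and Fis1-201 94.7% and 90.7% of Fis1. Mief2-201 held 84.3% and 83.8% of Mief2, with the retained-intron transcript Mief2-203 at 12.4% and 10.1%. In these 4 genes 1 coding transcript held most of the TPM, but Oma1 and Mief2 have only 1 annotated coding transcript each. The leader also held most of Yme1l1 (69.5% and 71.3%), likewise with 1 annotated coding transcript, and of Opa1 (52.6% and 55.8%). That of Mief1 held 46.3% and 55.5%. The leader of Dnm1l or Mff held under 40% and was not the same in both libraries. The leader of Mfn1 was also under 40% (31.3% and 35.9%), but was the same in both.

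Dnm1l-201 led with 39.2% in replicate 1 and Dnm1l-202 with 39.3% in replicate 2, where Dnm1l-201 had 33.2%. Dnm1l-203 held 10.99% and 14.2% and Dnm1l-207 held 10.3% and 6.88%. Mff-202 led with 28.5% in replicate 1 and Mff-212 with 24.5% in replicate 2, where Mff-202 had 21.9%. The open-ended Mff-204 held 14.9% and 10.9%, Mff-201 held 10.6% and 7.97%, and the non-coding Mff-210 held 8.01% and 12.4%. For both genes the deposited intervals of the leaders overlapped. In the second quantification all 10 members had the same leader in both libraries. There the share of Mfn2-201 was 50.2% and 48.3%, and that of Fis1-201 was 53.5% and 53.0%, so the dominance of these transcripts depended on the quantification. Mff-204 held 1.68% and 3.28% there, while Mff-201 held 17.6% and 14.2%.

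Of the remaining members, Mfn1-202 held 31.3% and 35.9% of Mfn1, Mfn1-201 16.3% and 18.5%, and the open-ended Mfn1-204 and Mfn1-206 14.7% and 18.1% and 10.2% and 5.28%. Opa1-206 held 52.6% and 55.8% of Opa1. Opa1-207, which has an open end, held 26.6% and 23.5%, the open-ended Opa1-208 11.8% and 7.43%, and Opa1-201 7.77% and 11.5%. Yme1l1-201 held 69.5% and 71.3% of Yme1l1 and the non-coding Yme1l1-206 held 24.3% and 23.3%. Mief1-201 held 46.3% and 55.5% of Mief1, Mief1-205 10.7% and 14.2%, and the non-coding Mief1-206 and Mief1-207 14.9% and 13.3% and 13.95% and 3.77%. The TPM share of Yme1l1-206, a transcript of 628 bases, rested on few reads, as it had 93.9 and 104 expected counts, against 2333 and 2773 for Yme1l1-201. These shares also depended on the quantification. In the second quantification Yme1l1-206 held 0% and 1.17%, Mfn1-206 0.0004% and 0%, and Mief1-207 0% in both libraries. Other transcripts held more there, among them Mfn1-204 at 27.8% and 28.7% and Opa1-201 at 16.1% and 20.1%.

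**Figure D4:**
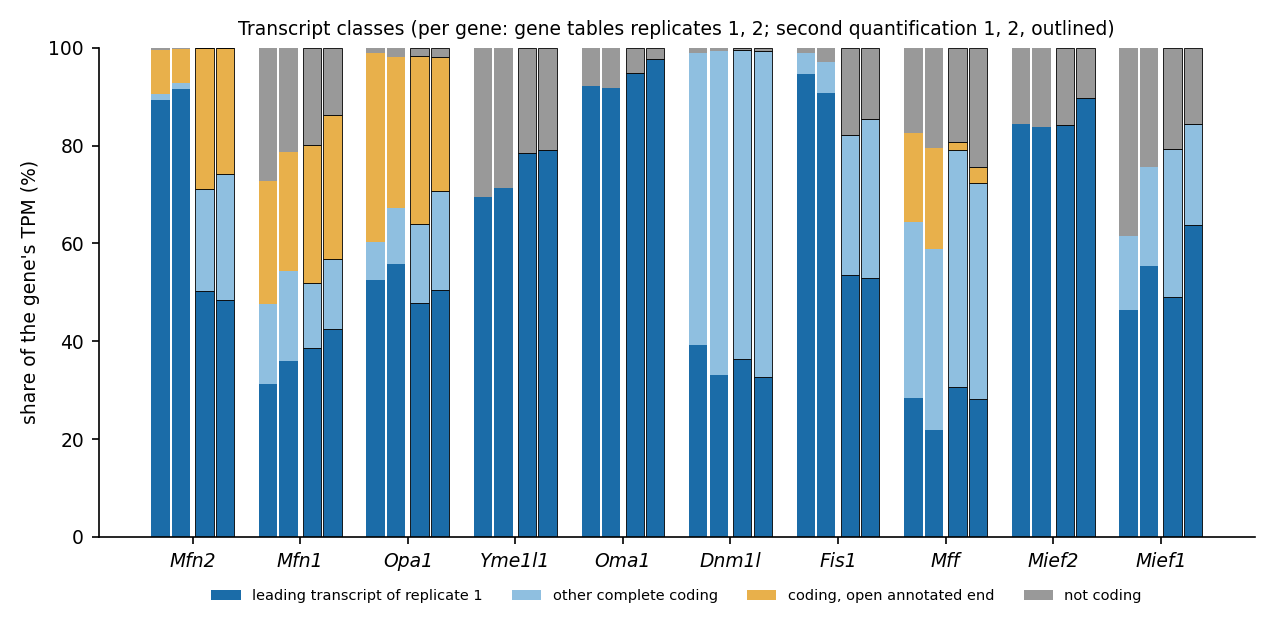
Share of each member's TPM (percent) held by the transcript leading in replicate 1, by its other complete coding transcripts, by coding transcripts with an open end and by non-coding transcripts, for each replicate and both quantifications. The leader's bar for Mfn2 stands at 89.2% and 91.5% in the gene tables and at 50.2% and 48.3% in the second quantification.

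The exons printed above were compared as the share of a gene's coding transcript TPM that holds the exon, among transcripts that span it. In Opa1, the 111-base exon, which in human OPA1 carries the site that YME1L1 cuts, was held by 38.9% in replicate 1 and 31.5% in replicate 2. It was annotated in open-ended transcripts alone, Opa1-207 and Opa1-208. The 54-base exon of Opa1 was held by 19.8% and 19.3%, and by 12.9% and 17.1% in complete coding transcripts alone. Over all coding transcripts the 111-base exon was the more often held of the 2, in both libraries. With counts not divided by length the shares were 20.7% and 17.0% for the 111-base exon and 7.70% and 9.18% for the 54-base exon.

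In Dnm1l, the 39-base exon, which adds residues to the GTPase domain, was held by 37.1% and 39.7%. The 33-base and 78-base exons, which lie in the variable domain between the middle domain and the GTPase effector domain, were held by 21.9% and 22.5% and by 11.3% and 15.2%. Most coding transcript TPM of Dnm1l thus skipped each of these exons.

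In Mff, the 75-base exon was held by 28.5% and 31.8% of coding TPM, the 159-base exon by 65.3% and 67.3%, and the 60-base exon by 76.4% and 82.0%. In complete coding transcripts alone these shares were 36.5% and 42.9%, 78.7% and 78.8%, and 95.1% and 96.9%. Across all 9 exons compared, the 8 printed and a 109-base exon of Mfn2 held by 94.6% and 97.7%, the libraries differed by 0.557 to 7.42 percentage points. The quantifications differed by up to 14.8 points. In the second quantification the 111-base exon of Opa1 was held by 34.9% and 28.01%, the 33-base exon of Dnm1l by 33.0% and 35.2%, and the 60-base exon of Mff by 95.6% and 92.4%. Of these 9, 5 were held by 20% to 80% in both libraries. The order of the exons within Opa1 and within Mff was the same in both libraries and in the second quantification. In Dnm1l the 39-base exon was highest in the gene tables, and the 33-base exon in the second quantification.

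**Figure D5:**
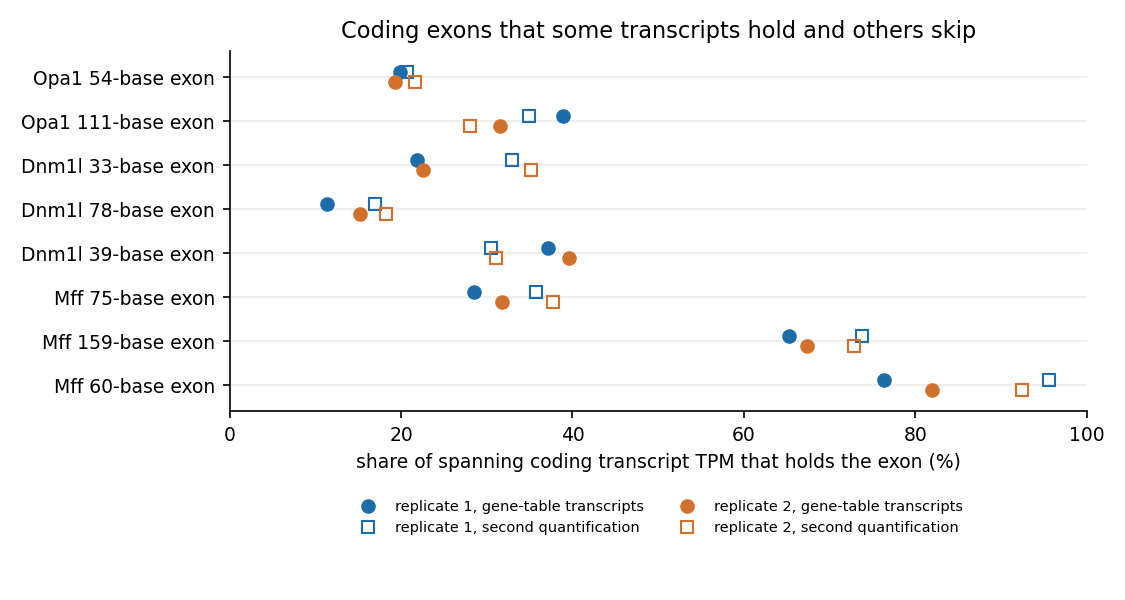
Share of coding transcript TPM (percent) that holds each of 8 exons of Opa1, Dnm1l and Mff in replicates 1 and 2, from the gene tables and the second quantification. The 60-base exon of Mff was highest, at 76.4% and 82.0%, and the 78-base exon of Dnm1l lowest, at 11.3% and 15.2%.

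Genes that work with the members were taken as 5 lists, 70 genes in all. A level of at least 1 TPM in both libraries was reached by 66, and of the 69 tested 47 were lower in replicate 2, against 48.6% of all genes, and 1 was past 1.5-fold, against 13.5%. These counts are of TMM-scaled values. Among the 6323 genes with a summed count of at least 1000, a depth that not every partner reached, 54.9% were lower and 4.92% past 1.5-fold. With library totals 30 of the 69 were lower in replicate 2, against 30.1% of all genes, and with spike-in totals 16, against 20.4%. The partner past 1.5-fold was Ppp2r2b, a regulatory subunit of protein phosphatase 2A that directs it to Drp1, with 0.44 TPM in replicate 1 and 0.91 in replicate 2. It had 26 and 64 counts.

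The division partners reached 1 TPM in 14 of 17 genes, led by Mtfr1l at 55.4 and 57.3 TPM. March5, an outer membrane ubiquitin ligase that marks Drp1 adaptors and mitofusins, had 33.1 and 31.6 TPM. Mtfp1, an inner membrane protein linked to division, had 26.9 and 19.9 TPM. Genes of Drp1 modification, which phosphorylate or dephosphorylate it or otherwise change it, reached 1 TPM in 13 of 14. Among them, Prkaca, a catalytic subunit of protein kinase A, had 127 and 158 TPM, and Ppp3r1, the calcineurin regulatory subunit, had 74.3 and 86.9 TPM. The median log2 ratio was -0.07 for division partners and 0.00 for Drp1 modifiers under TMM, and 0.15 and 0.22 with spike-in totals.

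The genes listed under inner membrane proteostasis were all above 1 TPM, 15 of 15. They were led by Chchd10 at 480 and 420 TPM, Chchd2 at 249 and 233 TPM, and Phb2, a prohibitin subunit, at 87.5 and 87.2 TPM. The cristae genes, 11 of 11 above 1 TPM, were led by Minos1, a MICOS subunit, at 208 and 212 TPM, Chchd3 at 160 and 142 TPM and Immt, which encodes mitofilin, at 132 and 119 TPM. Of these lists, 13 of 15 and 8 of 11 genes were lower in replicate 2, with median log2 ratios of -0.17 and -0.14 under TMM, against 48.6% of all genes and a median of 0.01. Among genes with a summed count of at least 1000 the share was 54.9% and the median -0.02. With library totals 12 and 7 genes of these lists were lower, with medians of -0.04 and -0.01, against 30.1% of all genes. With spike-in totals 6 and 3 were lower and the medians turned to 0.05 and 0.08, against 20.4% of all genes and a median of 0.23. The transport and tethering genes, 13 of 13 above 1 TPM, were led by the outer membrane channels Vdac1 at 601 and 553 TPM, Vdac3 at 169 and 154 TPM and Vdac2 at 144 and 145 TPM. Their median log2 ratio was -0.06 under TMM, with 7 of 13 lower in replicate 2, and 0.17 with spike-in totals, with 3 lower.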

How the data were processed

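Gastrocnemius total RNA of 2 libraries was prepared with a Norgen kit and ERCC spike-ins, per the labels, which name mm10. Aligner, quantifiers and interval level were not given in the sources used here. For each library the authors deposited expected counts, TPM, a posterior mean TPM, a posterior standard deviation of the count and isoform percent, per the file headers. The deposited interval bounds around TPM are signal values in the gene and transcript tables. Estimated counts and TPM of a further deposited table, called the second quantification, were summed per gene. Gene totals were 35592003 and 42105856 counts, and 285877 and 317175 for spike-ins. Rows named by a number (26248, with 1 and 0 counts) were left out.

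Expected counts were rounded and scaled by TMM factors of 0.957 and 1.05 (edgeR 4.0.16), or by DESeq2 1.42.0 size factors, library totals or spike-in totals. Genes with a summed count of at least 20 were tested, with a prior count of 0.5. Intervals are exact binomial (Clopper-Pearson) at 95% and cover counting error. Exons were those that coding transcripts with at least 5% of a gene hold and others skip within their span. Analyses ran in Python 3.11.15 with scipy 1.17.1, numpy 2.4.6, pandas 2.3.3 and matplotlib 3.10.9, and in R 4.3.3. The interval calculation was tested on simulated counts with counting error alone, the error it assumes, so this says nothing of other spread between libraries. The text names all 10 members, the 3 partner genes of highest mean TPM per list, every partner past 1.5-fold and transcripts with at least 10% of a member. A gene that this rule takes is not reported here. Members and lists were chosen with earlier results of these data known. GENCODE M21 gave names and coordinates.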

Additional observations from a re-analysis of the deposited data

How the results depend on the processing

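All 10 members reached 1 TPM in both libraries under every alternative run, and 5 TPM in the gene tables. In the second quantification Mfn2 over Mfn1 was 2.74 and Yme1l1 over Oma1 2.30, and with posterior mean TPM Yme1l1 over Oma1 was 2.48, against 2.41 and 2.59 for these pairs in the gene tables as means of the 2 libraries. With complete coding transcripts Mfn2 over Mfn1 was 4.32, Mief1 over Mief2 0.210 and Yme1l1 over Oma1 1.99. Counts not divided by length, which favour long genes, gave Mfn2 over Mfn1 4.98, Mief1 over Mief2 0.437, Yme1l1 over Oma1 5.24 and fusion over fission 2.37, and turned Dnm1l to above Fis1 (2.23), Mff (1.60) and Mief2 (1.35). With library totals the log2 ratio of Yme1l1 was 0.007 and of Mff 0.033. With spike-in totals they were 0.0996 and 0.1256, and Fis1 was 0.0095. The cause of these turns was not tested. At a log2 size of 0.32 1 member was past the fold, and the second quantification put 2 partner genes past 1.5-fold. Of 69 partner genes, 30 were lower in replicate 2 with library totals and 16 with spike-in totals, against 47 with TMM, a comparison added after seeing the data. Leaving out either of 2 libraries moves a mean by less than their spread by construction, so it says nothing of stability. A further 142 values of single members, pairs and exons were compared under alternatives, leaving out a library aside. For levels, pair ratios and exon shares the yardstick was the spread between the libraries. For log2 ratios it was the counting interval, which covers counting error alone. By these yardsticks 72 values stayed within, 62 moved beyond and the 8 given above turned direction. The ratios of Oma1, Mief1, Dnm1l and Mief2, whose counting intervals held 0, also changed sign with library totals and with spike-in totals. No paired analysis was possible because the 2 libraries are replicates of 1 group. The smallest summed count of a member was 1031, for Oma1.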
